A study of Mus musculus with 8 samples.

Results

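The mRNA levels of 10 genes of MHC class II antigen presentation were examined in mouse liver: the class II chains H2-Aa, H2-Ab1 and H2-Eb1, the invariant chain Cd74, the peptide exchange proteins H2-DMa, H2-DMb1, H2-Oa and H2-Ob, the regulator Ciita, and the costimulatory ligand Cd86. A probe belonged to the set if the array annotation named it after one of these genes. This gave 15 probes for 9 of the 10 genes. The probe annotated with the older symbol C2ta was matched to Ciita through its RefSeq accession and was added, so that 16 probes of 41174 non-control probes were studied. All 16 were among the 31056 probes that passed the detection filter, which required a signal well above background on at least 3 of the 4 arrays of 1 diet.

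Liver RNA came from male C57BL/6 mice (C57BL/6J in the study's methods) that received either standard chow (the STD diet, n = 4) or an atherogenic diet (the ATH diet, n = 4) for 4 weeks, starting at 14 to 17 weeks of age. The ATH diet is rich in fat and cholesterol and contains cholic acid. Each mouse had its own Agilent whole-genome array with a single dye. Levels are given as the log2 processed signal minus the 75th percentile of the same array, so a level of 0 lies at that percentile and a difference of 1 is a doubling. Levels of different probes cannot be ranked against each other, and only differences between arrays are compared. The liver holds several cell types, so a change in the number of cells of a type and a change in RNA per cell cannot be told apart.

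Between 72.35% and 77.76% of the spots of an array were well above background. The arrays of each diet shared a slide of their own, and an effect of the slide cannot be told apart from one of the diet. ATH replicate 2 stood apart from the other ATH arrays in the genes described here, and results are therefore given with and without it. Hepatocyte markers were abundant on every array. Alb, the serum albumin gene, had levels between 10.30 and 10.35 on the STD arrays and between 9.63 and 10.14 on the ATH arrays. The log2 fold change of the median detected probe was -0.15 with the scaling used here, and it lay between -0.08 and 0.3 with the other scalings, so the changes below are to be read against that shift.

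MHC class II molecules display peptides from the endosomal route to CD4+ T cells. Alpha and beta chains assemble with the invariant chain, travel to an acidic compartment, and exchange the remnant of the invariant chain for antigenic peptide. The exchange is catalysed by H2-DM and restrained by H2-DO. Dendritic cells, B cells and macrophages carry these molecules, and in liver the resident macrophages are the Kupffer cells. Ciita is the master regulator that switches on the class II genes, and interferon gamma induces it in many cell types. It is recruited by a complex of factors that sits on the X and Y boxes of class II promoters.

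Promoter windows are shown first because several class II genes share this pair of boxes. RefSeq windows of 300 bases, from 250 before to 50 after each gene start (GRCm38.p6), were listed for 6 of the 10 genes. Each was searched on both strands for the letters GNAAC, a core of the X box, followed after 20 to 30 bases by GATTGG, a core of the Y box. The letters and the spacing were chosen with these windows known, and the 2 cores cannot overlap at that spacing. The pair was found in H2-Aa (chr17:34287863-34287910, minus strand), H2-Eb1 (chr17:34305770-34305816, plus strand), H2-DMb1 (chr17:34153091-34153138, plus strand), H2-Oa (chr17:34092297-34092344, plus strand) and H2-Ob (chr17:34238812-34238856, plus strand). The stretches are printed in the direction of the gene with the 2 cores in capitals.
H2-Aa: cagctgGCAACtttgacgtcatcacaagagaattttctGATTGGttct
H2-Eb1: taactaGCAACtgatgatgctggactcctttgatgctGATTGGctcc
H2-DMb1: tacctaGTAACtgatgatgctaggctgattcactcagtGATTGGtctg
H2-Oa: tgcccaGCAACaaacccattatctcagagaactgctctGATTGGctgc
H2-Ob: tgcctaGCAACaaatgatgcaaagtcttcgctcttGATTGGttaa

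The gap between the cores was 27 bases in H2-Aa, H2-DMb1 and H2-Oa, 26 in H2-Eb1 and 24 in H2-Ob. The Y core ended between 38 and 56 bases before the gene start in these 5 windows. The pair was present in 213 of 32817 windows of the same length in the table (0.649%). The Y core alone was in 16.1% of them and the X core alone or with other letters in 84.9%. Neither of the windows of H2-DMa held the pair. The window of the neighbouring gene H2-Eb2, which is no member, held it as well (chr17:34325537-34325583, plus strand), and its sequence is shown for comparison with the levels given further on.
H2-Eb2: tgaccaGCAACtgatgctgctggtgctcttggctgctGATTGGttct

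In 3 of 4 mice administered the ATH diet the class II genes lay above all STD mice, beside 8.95% of all detected probes. In ATH replicate 2, 10 of the 16 probes lay within the STD range, beside 45.6% of all detected probes. The other 6 lay above it, beside 24.7%. All 16 probes had a higher mean on the ATH diet, although few passed the test, with log2 fold changes between 1.04 (H2-Ob) and 2.67 (H2-Aa and H2-Eb1). Over the 10 genes, each represented by its brightest detected probe, the median log2 fold change was 2.17, against -0.14 for all 16558 genes with a detected probe. The SD among STD arrays was 0.12 to 0.52 over the 16 probes, whereas the SD among ATH arrays was 0.70 to 2.24. In 9 of the 16 probes the ATH SD was at least 1.5, which held for 0.58% of all detected probes.

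With limma and Benjamini-Hochberg adjustment over all detected probes, 3 of the 16 probes passed a false discovery rate of 5%, all higher on the ATH diet. They were both probes of Cd86 and the probe of H2-DMb1. Of all detected probes, 7.99% passed in either direction and 3.06% passed as higher on the ATH diet. By the brightest probe of each gene, 2 of 10 genes passed as higher and none as lower, beside 4.05% higher and 5.3% lower over all genes. At a rate of 1%, limma called none of the 16 probes, beside 0.193% of all probes called higher. The unequal-variance test of the Methods called none of the 16 at 5% (3 with an unadjusted p under 0.05). It called 22 of all 31056 detected probes in either direction. The unadjusted limma p was under 0.05 for 16 of 16 probes, beside 9.04% of all probes that were higher with such a p. The adjusted p of the 13 probes that did not pass lay between 0.0582 and 0.167.

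**Figure D1:**
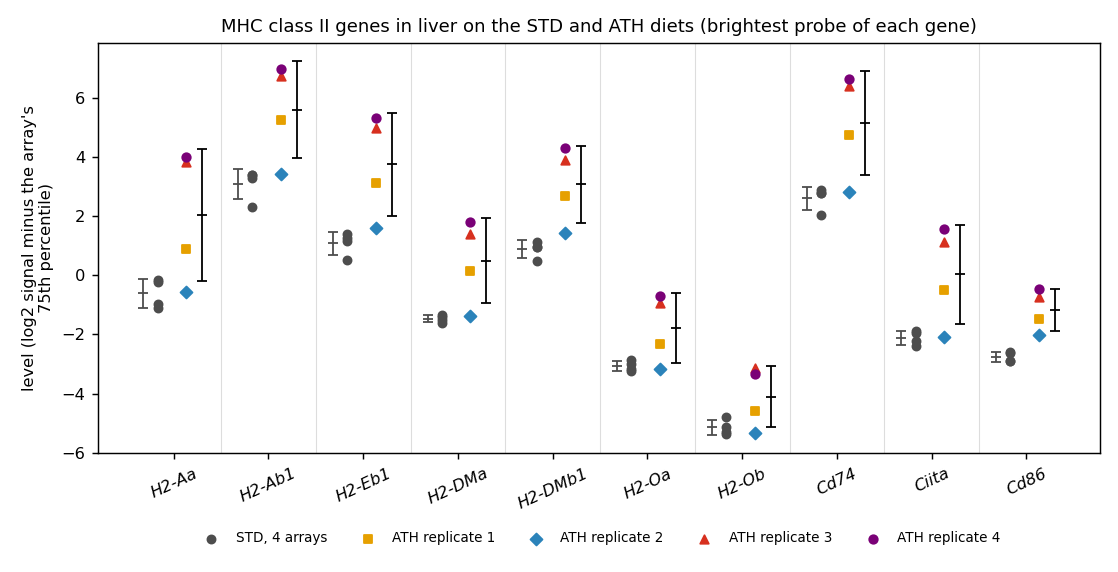
Levels of the 10 genes on each array (vertical axis, log2 signal minus the array's 75th percentile; brightest probe of each gene). Points are arrays, and bars are mean ± SD of 4 arrays per diet. ATH replicates 3 and 4 lie above all other arrays in every gene, ATH replicate 1 lies between, and ATH replicate 2 is the lowest ATH array.

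H2-Aa encodes the alpha chain of the I-A molecule. Its brighter probe (A_52_P343306, chr17:32362310-32362369 in the array's build mm7) had levels of -0.21, -0.97, -0.15 and -1.09 on the STD arrays. On ATH arrays 1 to 4 the levels were 0.90, -0.56, 3.83 and 3.99. Thus 3 ATH arrays were above every STD array, replicates 3 and 4 the farthest, while ATH replicate 2 lay within the STD range and the diets overlapped. The log2 fold change was 2.65 ± 0.94 (SE, n = 4 per diet), with a 95% interval from 0.51 to 4.79 and an adjusted p of 0.11 (limma). The second probe, A_51_P119760, gave 2.67 ± 0.90 and an adjusted p of 0.095 (limma). H2-Aa had the widest ATH spread of the set, with an SD of 2.24 that only 0.0676% of detected probes reached.

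H2-Ab1 encodes the beta chain that pairs with H2-Aa, and it was measured by 4 probes. The brightest, A_52_P683598 (chr17:32346939-32346998, mm7), had levels of 3.39, 3.38, 3.30 and 2.31 on the STD arrays. On ATH arrays 1 to 4 they were 5.24, 3.42, 6.74 and 6.99. ATH replicate 2 exceeded the highest STD array by a margin far smaller than the STD range of 1.07, so the diets did not overlap only in that narrow sense. The log2 fold change was 2.50 ± 0.71 (adjusted p = 0.0634, limma). The other 3 probes gave log2 fold changes of 2.54 (A_51_P215237), 2.61 (A_51_P215242) and 2.56 (A_52_P570717). Over the 4 probes, the difference from the STD mean was 2.0 to 2.14 for ATH replicate 1, -0.02 to 0.33 for ATH replicate 2, 3.65 to 3.96 for ATH replicate 3 and 3.89 to 4.34 for ATH replicate 4.

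Probe A_51_P215237 of H2-Ab1 (chr17:32345268-32345327, mm7) is printed 10 times on each array, and the SD of its spots was between 0.0214 and 0.0471 on the log2 scale. The SD of its level among the 4 ATH arrays was 1.93, and among the 4 STD arrays it was 0.48. Repeated spots share an array, and the spread of labelling and hybridisation between arrays was not measured. A further pair of H2-Ab1 probes overlap in sequence, and they are shown because 2 designs of slightly different sequence gave the same order of the 4 ATH arrays. The overlap of 31 bases contains 2 mismatches, A34T and A49T, counted from 1 at the 5′ end of A_52_P570717, with the base of that probe first and the base of A_51_P215242 last. Mismatched bases are in capitals.
A_52_P570717: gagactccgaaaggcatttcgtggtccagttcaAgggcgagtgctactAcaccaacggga
A_51_P215242: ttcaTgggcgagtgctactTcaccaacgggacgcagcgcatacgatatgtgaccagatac

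A_51_P215242 had levels of 0.09, -0.11, 0.04 and -0.89 on the STD arrays and 1.92, -0.24, 3.74 and 4.12 on the ATH arrays. A_52_P570717 had levels of -1.0, -1.21, -0.95 and -1.87 on the STD arrays and 0.82, -1.24, 2.61 and 3.02 on the ATH arrays. On both probes STD replicate 4 was the lowest STD array and ATH replicate 2 lay within the STD range. Their adjusted p-values were 0.0873 and 0.085, respectively (limma).

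H2-Eb1 encodes the beta chain of the I-E molecule. Its probe (A_51_P393226, chr17:32392430-32392891, mm7) had levels of 1.25, 1.39, 1.16 and 0.53 on the STD arrays. The ATH arrays had 3.11, 1.59, 5.0 and 5.32. All 4 ATH arrays were above all STD arrays, with ATH replicate 2 the closest to them. The log2 fold change was 2.67 ± 0.74 (adjusted p = 0.0582, limma). Its partner H2-Ea, the I-E alpha chain, is known to be defective in C57BL/6 mice, and its probe was not well above background on any of the 8 arrays.

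Cd74, the invariant chain that escorts newly made class II molecules, followed the same order. Its probe (A_51_P284608) had levels of 2.77, 2.77, 2.88 and 2.03 on the STD arrays and 4.74, 2.82, 6.40 and 6.63 on the ATH arrays. ATH replicate 2 lay inside the STD range and the remaining 3 ATH arrays lay above it. This gave a log2 fold change of 2.53 ± 0.75 (adjusted p = 0.069, limma).

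The H2-DM genes encode the heterodimer that catalyses peptide exchange. H2-DMb1, the beta chain (A_51_P278868, chr17:32236685-32236744, mm7), had levels of 1.14, 0.97, 0.97 and 0.48 on the STD arrays. On the ATH arrays it had 2.68, 1.43, 3.91 and 4.31. Every ATH array was above every STD array, and the log2 fold change of 2.19 ± 0.55 (95% interval 0.94 to 3.45) passed the 5% threshold with an adjusted p of 0.0472 (limma). H2-DMa, the alpha chain (A_51_P473734, chr17:32217439-32218002, mm7), had -1.34, -1.52, -1.40 and -1.61 on the STD arrays and 0.14, -1.38, 1.40 and 1.82 on the ATH arrays. The STD arrays of H2-DMa were close together, with an SD of 0.12, and ATH replicate 2 was among them. Its log2 fold change was 1.96 ± 0.60 (adjusted p = 0.0751, limma). H2-DMb2, a close copy of H2-DMb1 that is no member, had a log2 fold change of 2.05 ± 0.70 (adjusted p = 0.0966, limma) by its detected probe. Cross-hybridisation between the 2 copies was not tested.

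The H2-DO genes encode the modulator of H2-DM that is best known from B cells. H2-Oa was measured by 2 probes that differed in size of change. The brighter probe (A_51_P449329, chr17:32174875-32174935, mm7) had -3.25, -3.17, -2.86 and -3.01 on the STD arrays and -2.31, -3.18, -0.95 and -0.70 on the ATH arrays, a log2 fold change of 1.29 ± 0.49 (adjusted p = 0.129, limma). The other, A_51_P449325 (chr17:32174944-32175003, mm7), had -3.62, -3.55, -3.65 and -3.38 on the STD arrays and -2.12, -3.34, -0.53 and -0.22 on the ATH arrays, a log2 fold change of 2.0 ± 0.61 (adjusted p = 0.0737, limma). The ATH arrays kept one order on both probes, and only the second probe separated the diets, narrowly. H2-Ob (A_52_P679470, chr17:32321710-32321941, mm7) was well above background on 1 STD array and 3 ATH arrays, and it entered the test through its ATH arrays. Its levels were -5.35, -4.80, -5.12 and -5.30 on the STD diet and -4.58, -5.33, -3.14 and -3.35 on the ATH diet. The log2 fold change was 1.04 ± 0.45 (adjusted p = 0.167, limma), and it was -0.03 when the background was corrected with normexp.

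Ciita, the class II transactivator, had levels of -1.96, -1.87, -2.21 and -2.40 on the STD arrays (A_52_P109941, chr16:10203747-10203806, mm7). The ATH arrays had -0.50, -2.08, 1.14 and 1.58. ATH replicate 2 lay within the STD range and ATH replicates 1, 3 and 4 above it, as for the chains. Ciita thus had a log2 fold change of 2.14 ± 0.70 (adjusted p = 0.0883, limma). Without Ciita the number of probes called stayed at 3 and the median over the remaining genes was 2.19.

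Cd86, the ligand by which antigen-presenting cells costimulate T cells through CD28, was called on both of its probes. A_52_P145861 (chr16:36312799-36312858, mm7) had -2.63, -2.91, -2.59 and -2.88 on the STD arrays and -1.46, -2.02, -0.73 and -0.47 on the ATH arrays. A_51_P174723 (chr16:36323674-36323733, mm7) had -4.08, -4.27, -3.98 and -4.15 on the STD arrays and -2.38, -3.03, -1.56 and -1.40 on the ATH arrays. On both probes all ATH arrays, replicate 2 included, were above all STD arrays. The log2 fold changes were 1.58 ± 0.31 (95% interval 0.87 to 2.29, adjusted p = 0.026) and 2.03 ± 0.33 (95% interval 1.28 to 2.78, adjusted p = 0.0162), both by limma. The ATH SD of 0.70 and 0.76 was the lowest of the 16 probes. With the replicate number as a block, both probes kept their call, with adjusted p-values of 0.047 and 0.0366, whereas H2-DMb1 lost it with 0.073 (limma), which left 1 gene called.

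The 4 ATH arrays kept nearly the same order in every gene of the set. In 15 of 16 probes the order from low to high was ATH replicate 2, 1, 3 and 4, an order that 7.16% of all detected probes had. The exception was H2-Ob, in which ATH replicate 3 exceeded ATH replicate 4. ATH replicate 2 was the lowest ATH array in 16 of 16 probes and in 19.2% of all detected probes. In 16 of 16 probes the other 3 ATH arrays lay above all STD arrays, which held for 8.95% of all detected probes. The diets did not overlap in 6 of 16 probes, beside 6.01% of all probes with every ATH array above every STD array. These probes belonged to H2-Ab1, H2-Eb1, H2-DMb1, H2-Oa and Cd86. The members were measured on the same 8 livers, so their shared order is a description of these mice and not a set of independent observations.

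Expressed per mouse, the median over the 10 genes of the difference from the STD mean was 1.61 for ATH replicate 1, 0.15 for ATH replicate 2, 3.13 for ATH replicate 3 and 3.56 for ATH replicate 4. Among STD mice the same median was 0.15, 0.12 and 0.12 for replicates 1 to 3 and -0.35 for replicate 4. ATH replicate 2 was therefore at the level of the STD mice by this measure. STD replicate 4 was the lowest STD array in 11 of 16 probes, beside 30.5% of all detected probes.

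Leaving out ATH replicate 2 raised the number of called probes from 3 to 16 of 16 at 5% (limma), with log2 fold changes between 1.45 for H2-Ob and 3.52 for H2-Aa. Of all detected probes, 5.7% were then called higher at 5%. This array was not left out for any reason in its labels, and its values on these genes are what sets it apart, so these calls describe the other 3 ATH mice. Leaving out STD replicate 1 lowered the count to 0 probes at 5%, with 14 at an unadjusted p under 0.05, and leaving out STD replicates 2, 3 or 4 or ATH replicates 3 or 4 left 1 probe. Without ATH replicate 1 the count was 2.

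**Figure D2:**
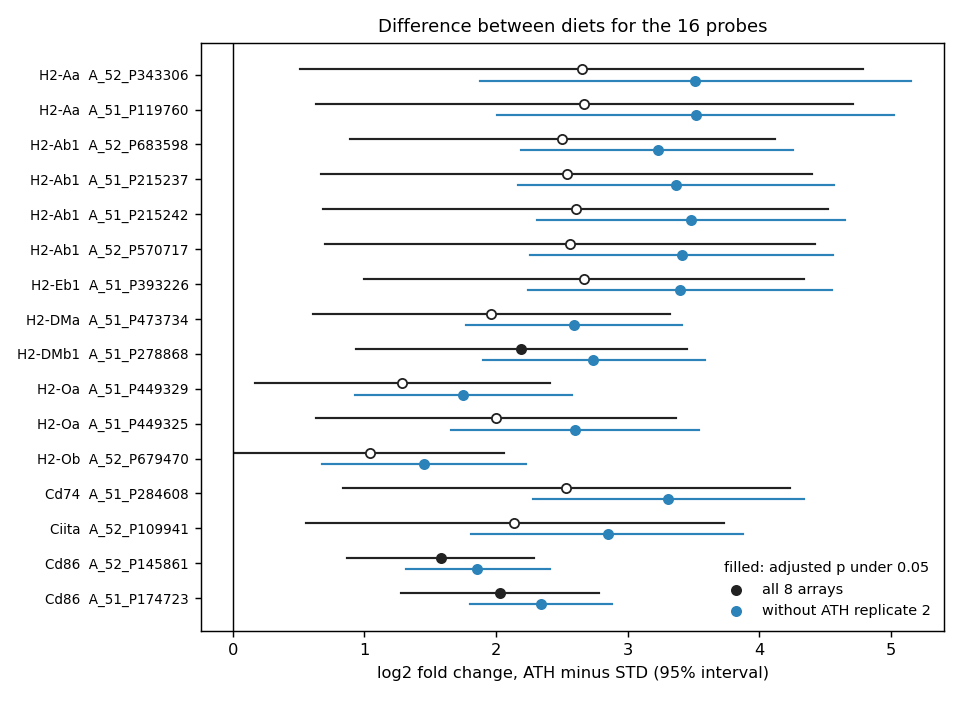
Log2 fold change of the 16 probes, ATH minus STD (horizontal axis), with 95% intervals from limma for all 8 arrays (black) and without ATH replicate 2 (blue). Filled points have an adjusted p under 0.05, which 3 probes have with all arrays and 16 without ATH replicate 2.

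The class II region on chromosome 17 also holds genes that are no members. Between H2-Oa and H2-Ea, 19 detected probes lay in the region by the array's positions, 10 of members and 9 of other genes. Member probes in the region changed by 1.04 to 2.67 on the log2 scale, and 1 was called at 5%. The other probes changed by -0.63 to 2.05, and 2 were called, both of Psmb8, an immunoproteasome subunit of the class I route, with a log2 fold change of 0.97 ± 0.23 each. Psmb9, a second such subunit, had 0.90 ± 0.31 (adjusted p = 0.098), Tap1 and Tap2, the peptide transporter of class I, had 0.37 ± 0.48 and 0.22 ± 0.44, and Brd2, a chromatin reader, had -0.13 ± 0.23. H2-Eb2, whose promoter window holds the X and Y pair printed above, had -0.63 ± 0.24 by its brighter probe (adjusted p = 0.127, limma). Its other probe had -0.23 (adjusted p = 0.662, limma). The window of H2-DMb2, which had 2.05 ± 0.70, did not hold the pair. In ATH replicate 4, the member probes in the region stood 1.8 (H2-Ob) to 4.59 (H2-Aa) above the STD mean, H2-DMb2 stood 3.62 above it, and Psmb9, Tap1, Psmb8 and Tap2 stood 0.96 to 1.55 above it.

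**Figure D3:**
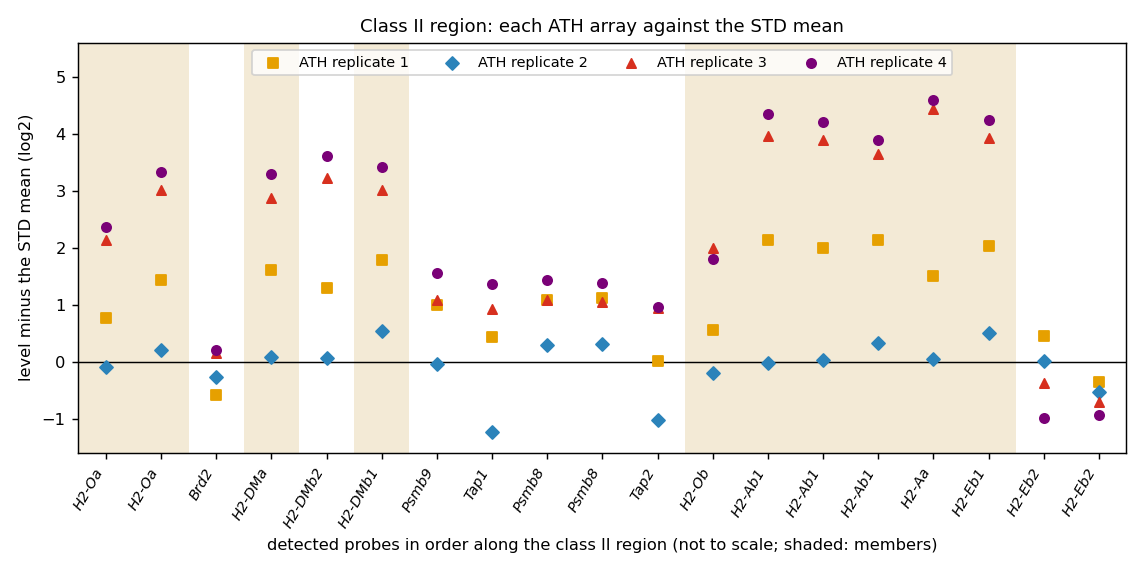
Detected probes in order along the class II region (horizontal axis, not to scale), with the difference of each ATH array from the mean of the 4 STD arrays (vertical axis, log2). Shaded probes belong to members. The class I genes Psmb9, Tap1, Psmb8 and Tap2 between the class II genes reach at most 1.55 above the STD mean.

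Genes that act upstream of the class II promoters were examined next. None of the 7 genes of the class II promoter complexes RFX, NF-Y and CREB was called by limma or by the unequal-variance test, 2 of them had an unadjusted limma p under 0.05, and their median was 0.02 (-0.16 to 0.47 over the alternative settings). The largest differences were 0.56 ± 0.20 for Nfya (adjusted p = 0.104) and -0.33 ± 0.14 for Nfyc (adjusted p = 0.153, limma). Of 9 genes of the interferon gamma axis, 3 were called higher and none lower, with a median of 0.72. With the replicate block limma called none of the 9, and 6 had an unadjusted p under 0.05. Irf8, a myeloid transcription factor of the interferon response, had 0.50, 0.64, 0.43 and 0.63 on the STD arrays and 1.95, 1.04, 2.85 and 3.26 on the ATH arrays, a log2 fold change of 1.72 ± 0.42 (adjusted p = 0.043). Ifngr2, a receptor chain for interferon gamma, had 0.77 ± 0.15 (adjusted p = 0.0251), and Jak2, its kinase, had 0.65 ± 0.15 (adjusted p = 0.0416). The second probe of each of these 3 genes was not called, with 1.58 for Irf8 (adjusted p = 0.0786), 0.56 for Ifngr2 (adjusted p = 0.0593) and 0.08 for Jak2 (adjusted p = 0.839, limma). With the replicate block the adjusted p of the called probes was 0.0616 for Irf8, 0.0577 for Ifngr2 and 0.0741 for Jak2. Ifng itself had levels between -3.19 and -2.68 on the STD arrays and of -1.58, -3.67, -1.42 and -0.49 on the ATH arrays, with ATH replicate 2 below every STD array and an adjusted p of 0.189, while its other probe had a log2 fold change of 2.28 (adjusted p = 0.11). Socs1, an interferon-induced inhibitor of Jak kinases, had 1.52 ± 0.56 (adjusted p = 0.117, limma).

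Of 7 genes of endosomal processing, 2 were called higher and none lower, and the median log2 fold change was 0.41. Ctss, the cathepsin that trims the invariant chain in antigen-presenting cells, had 3.56, 3.51, 3.61 and 3.64 on the STD arrays and 5.28, 4.38, 6.77 and 6.78 on the ATH arrays. Its log2 fold change was 2.22 ± 0.49 (adjusted p = 0.0352), and ATH replicate 2 was above the STD arrays. The adjusted p of Ctss was 0.0512 with the replicate block, which left 1 gene of this list called. Lgmn, a lysosomal protease that also acts on the invariant chain and antigens, had 1.09 ± 0.15 (adjusted p = 0.0105). Ifi30, an interferon-induced thiol reductase of the lysosome, had 1.69 ± 0.47 (adjusted p = 0.0594), and Ctsd, a general lysosomal protease, had 0.41 ± 0.20 (adjusted p = 0.224, limma).

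Of 7 genes of costimulation and class II turnover, 2 were called higher and none lower, with a median of 1.77. Cd83, a surface protein of mature dendritic cells, had -1.82, -1.6, -1.44 and -1.82 on the STD arrays and 0.39, -0.53, 1.61 and 1.25 on the ATH arrays, a log2 fold change of 2.35 ± 0.41 (adjusted p = 0.019). Marchf1, the ubiquitin ligase that removes class II and CD86 from the surface, had 1.77 ± 0.39 (adjusted p = 0.0342). Cd40 and Cd274, a costimulatory receptor and the inhibitory ligand PD-L1, had 1.81 ± 0.48 and 2.06 ± 0.55 (adjusted p = 0.0517 and 0.0528, limma). Among 10 class I presentation genes, 1 was called, Psmb8, and the median was 0.31. Psmb8 lost its call with the replicate block (adjusted p = 0.0788, limma), when 4 of these genes had an unadjusted p under 0.05. Psmb10, the third immunoproteasome subunit, had 0.70 ± 0.19 (adjusted p = 0.0594, limma).

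Markers of the cell types that carry class II followed these genes to differing degrees. The members' order of ATH arrays was seen in 6 of 10 macrophage and Kupffer cell markers. It was seen in 4 of 9 detected dendritic cell markers and 0 of 8 detected B cell markers, beside 7.16% of all detected probes. Summed over the list on the linear scale, where 1 is the 75th percentile of the array, the 10 macrophage and Kupffer cell markers had 64.6 to 69.4 on the STD arrays and 204, 113, 337 and 415 on ATH arrays 1 to 4. The same sum over the 10 members was 13.2 to 23.7 on the STD arrays and 83.7, 25.2, 259 and 309 on the ATH arrays. Both sums had the same order of ATH arrays. The sum of ATH replicate 2 was 113 against at most 69.4 on the STD diet for the macrophage markers, and 25.2 against at most 23.7 for the members. The genes behind the macrophage sum differed in ATH replicate 2, where Cd5l, the probe with the highest signal of the list on that array, stood 1.05 above its STD mean and Marco 1.22, while Adgre1 stood at 0.18, Csf1r at -0.06 and Clec4f, a Kupffer cell lectin, at -0.02. Of the macrophage and Kupffer cell markers 4 were called higher, and the median was 1.33. Marco, a scavenger receptor, had 3.43 ± 0.76 (adjusted p = 0.0352), Cd68, a lysosomal protein of macrophages, had 1.92 ± 0.48 (adjusted p = 0.0461, and 0.0551 with the replicate block), Cd5l, a secreted protein of tissue macrophages, had 1.69 ± 0.23 (adjusted p = 0.00899), and Fcgr1, an Fc receptor, had 1.61 ± 0.30 (adjusted p = 0.0222). Adgre1, a surface marker of macrophages, had 1.54 ± 0.46 (adjusted p = 0.0702), and Csf1r, the receptor for the macrophage growth factor, had 1.12 ± 0.45 (adjusted p = 0.142, limma), with -0.17 on another of its 3 probes.

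Of 10 markers of monocytes and recruited macrophages, 7 were called higher by the brightest probe, with a median of 2.3. With the replicate block limma called 5 of the 10. The 2 probes of Cx3cr1 disagreed, with -0.3 for the brighter and 3.13 for the other (adjusted p = 0.557 and 0.0289, limma). The second probe of Ccr2, a called gene, had 0.72 (adjusted p = 0.134, limma). Gpnmb, a glycoprotein of lipid-laden macrophages, was not well above background on any STD array and entered the test through its ATH arrays. Its levels were -1.27, -2.91, 1.59 and 0.79 on the ATH arrays. With STD levels set no lower than the lowest level of any detected probe on the array, the difference was 32.4-fold. That level is no strict limit, so the size of the difference is uncertain. Its other probe did not pass the detection filter. Trem2, a lipid receptor of macrophages, had 3.16 ± 0.50 (adjusted p = 0.0141), Lgals3, galectin 3, had 2.77 ± 0.42 (adjusted p = 0.0134), and Cd14, a lipopolysaccharide co-receptor, had 2.56 ± 0.65 (adjusted p = 0.0478, and 0.0524 with the replicate block). Ly6c2, a monocyte surface marker, had 1.54 ± 0.42 (adjusted p = 0.0574), and Itgam, the integrin chain CD11b, had 0.74 ± 0.67 (adjusted p = 0.49, limma). Every ATH array was above every STD array in 8 of these 10 genes and in 4 of the 10 members by the brightest probe, beside 7.59% of all genes, and the difference between the 2 lists was not tested. Per array, the median difference of these markers from the STD mean was 1.74, 0.82, 3.18 and 3.36 for ATH replicates 1 to 4, and that of the members was 1.61, 0.15, 3.13 and 3.56. The part of these cells in the class II levels was not tested.

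Of 9 detected dendritic cell markers, 4 were called higher and 1 lower, with a median of 1.41. Itgax, which encodes CD11c, had -3.77, -3.54, -3.77 and -3.23 on the STD arrays and -0.16, -2.18, 1.80 and 1.88 on the ATH arrays, a log2 fold change of 3.91 ± 0.80 (adjusted p = 0.0288). Its second detected probe had -0.38 (adjusted p = 0.197), so the 2 probes of Itgax disagreed in direction. Batf3, a transcription factor of a dendritic cell lineage, had 1.41 ± 0.35 (adjusted p = 0.0443), and Siglech, a receptor of plasmacytoid dendritic cells, had 2.04 ± 0.46 (adjusted p = 0.0352) but was well above background on only 1 STD array. With the replicate block Batf3 and Siglech lost their calls (adjusted p = 0.0764 and 0.067, limma), and 1 gene of the list was called higher. Clec10a and Ccr7, a lectin and a chemokine receptor, had 1.53 ± 0.48 and 1.51 ± 0.44 and did not pass (adjusted p = 0.0786 and 0.0676, limma). For Xcr1, a chemokine receptor of cross-presenting dendritic cells, the 2 probes were called in opposite directions, -0.67 for the brighter and 1.36 for the other, so no direction is given for it. Without ATH replicate 2, 7 dendritic cell markers, 8 macrophage and Kupffer cell markers, 8 monocyte markers and 8 genes of the interferon gamma axis were called higher (limma).

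B and T cell markers were not called. Of 8 detected B cell markers none passed by limma or by the unequal-variance test, none had an unadjusted p under 0.05, and their median was 0.46. Their largest differences were 0.87 ± 0.40 for Cd22, a B cell inhibitory receptor, and 0.65 ± 0.35 for Ighm, the IgM heavy chain (adjusted p = 0.187 and 0.254). Of 9 detected T cell markers none passed by either test, although 7 had an unadjusted limma p under 0.05, and their median was 1.06. Without ATH replicate 2, 2 B cell and 6 T cell markers were called higher (limma). Cd8a, the CD8 alpha chain, had -4.82, -5.01, -4.52 and -4.91 on the STD arrays and -3.07, -4.69, -0.74 and -0.36 on the ATH arrays (adjusted p = 0.0873, limma). Cd3d, a chain of the T cell receptor complex, had 1.66 ± 0.56 (adjusted p = 0.0935). By the brightest probe, the order of ATH arrays of the class II genes was seen in 6 of the 9 T cell markers. It was not seen in Cd3e (-0.71), Cd8b1 (-0.16) and Cd4 (0.02). Detected probes disagreed in direction for Cd8b1, whose other probe had 1.71 (adjusted p = 0.0914, limma). They also disagreed for Cd6, with 1.01 for the brighter and -0.56 for the other (adjusted p = 0.0885 and 0.0829, limma). Of 9 detected hepatocyte markers, 2 were called lower and none higher, with a median of -0.22 that lay between -0.35 and 0.23 over the alternative settings. Tat, an enzyme of tyrosine breakdown, had -1.05 ± 0.15 (adjusted p = 0.0104), and Ass1, an enzyme of the urea cycle, had -0.70 ± 0.17 (adjusted p = 0.0449, and 0.0682 with the replicate block). Pck1, an enzyme of gluconeogenesis, had -0.90 ± 0.26 (adjusted p = 0.0692), and Alb had -0.42 ± 0.14 (adjusted p = 0.0894), which became 0.03 with quantile normalization or no scaling (limma).

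**Figure D4:**
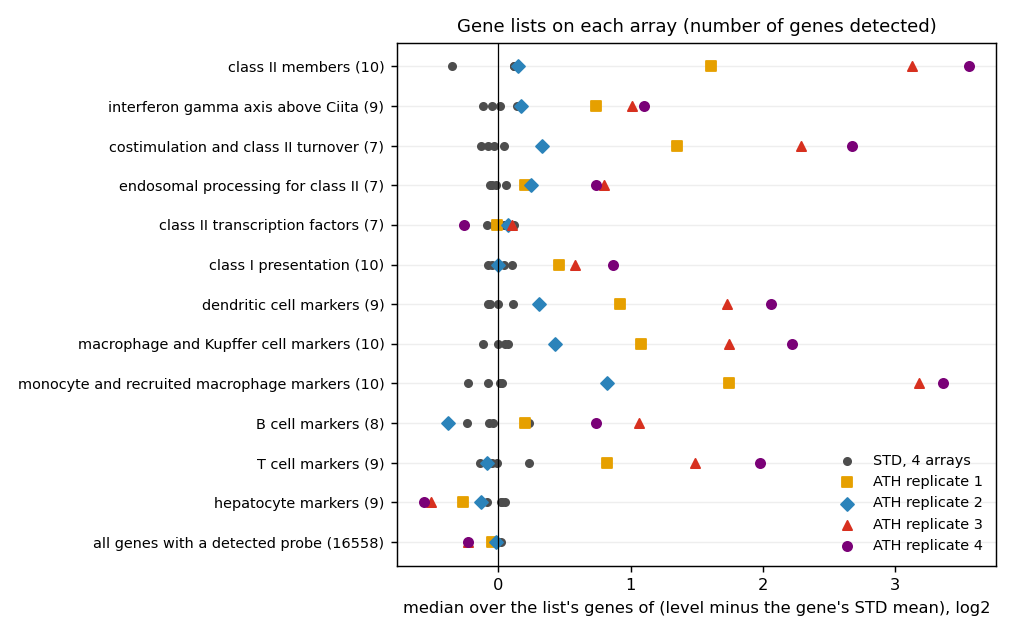
Median over each gene list of the level minus that gene's mean on the STD diet (horizontal axis, log2), for each of the 8 arrays; the number of genes detected is in parentheses. Class II members reach 3.13 and 3.56 in ATH replicates 3 and 4 and 0.15 in ATH replicate 2, where macrophage and Kupffer cell markers reach 0.43 and monocyte markers 0.82.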

How the data were processed

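Total liver RNA from 8 mice was labelled with Cy3 and hybridised to Agilent Whole Mouse Genome arrays. The authors ran Agilent Feature Extraction version 9.5 with 1-color defaults, and the deposited files hold spot intensity values that are background-subtracted and detrended. A deposited table of log2 values, made by the authors in GeneSpring with its scaling not stated, served as an alternative. Groups came from the diet in the labels.

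Spots of a probe were averaged without outlier-flagged spots. Non-control probes were scaled to the 75th percentile of their array and log2-transformed. The diets were compared in R 4.3.3 with limma 3.58.1, two-sided, using lmFit and eBayes with Benjamini-Hochberg adjustment. The test was checked on simulated data. With 4 arrays per diet, the number of arrays limits the precision. The labels do not say whether mice shared a cage.

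Named were all probes of the members, and from every other list up to 4 called genes and 2 uncalled genes with the largest differences, with H2-Ea. The members, the lists and these rules were chosen with earlier results of these data known. Same-numbered arrays shared a position on their slides, and their deviations from the diet mean correlated in all 4 pairs (r = 0.1002, 0.2297, 0.1815 and 0.1766 over 31042 probes), so the replicate number was tried as a block. Other alternatives were normexp with an offset of 50, quantile, median, spike-in and no scaling, other detection filters, the unequal-variance test of the Methods, and each array left out. The alternatives without Ciita, at the threshold of the Methods for their test, and for genes of the other lists were added after the data were seen. RefSeq symbols were matched by accession for 22951 probes, by symbol for 6659 and by synonym for 3109, and 8455 had no match.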

Additional observations from a re-analysis of the deposited data

Results flagged for a closer look

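In each diet, a single array was examined for its distance from the other 3 in every probe described above, and chance alone sets apart about 1 in 20 such groups. STD replicate 4 was the lowest STD array by a wide gap for H2-Ab1 (A_52_P683598), at 2.31 against 3.30 for the nearest array, a gap of 0.916 of the STD range. It was likewise low for Cd74, at 2.03 against 2.77, a gap of 0.872 of the range. The same mouse was the highest STD array for Marchf1, the ligase that removes class II from the surface, at -1.39 against -1.63, a gap of 0.887 of the range. STD replicate 2 was low for Adgre1, at 1.51 against 1.73, a gap of 0.841 of the range. Without STD replicate 4, 1 member probe was called. In all, 4 of 124 groups of 4 arrays were set apart in this way.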

How the results depend on the processing

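All 16 probes kept their direction under every alternative except H2-Ob, which was -0.03 with normexp background correction. Counts of calls moved much more than the values. In the order member probes, member genes and all probes, the counts were 3, 2 and 2482. They were 11, 7 and 6394 with normexp, 13, 7 and 7365 with no scaling, and 16, 10 and 3986 without ATH replicate 2. With each array left out in turn they ranged from 0 to 16, from 0 to 10 and from 394 to 3986. Without STD replicate 1 they were 0, 0 and 412. With no detection filter 2, 1 and 1085 were called, and with quantile normalization 2, 1 and 1918. The fit with a replicate block called 2, 1 and 1383. Among member probes the block changed only the call of H2-DMb1. The genes of other lists that are named above and lost their call are given there with their values. At a false discovery rate of 1%, 0, 0 and 164 were called. The unequal-variance test that the Methods name, run with the scaling and filter used here, called 0, 0 and 22. At 1%, the threshold of the Methods, it called 0, 0 and 0, a count added after the data were seen. The paper itself lists probes as changed at that threshold, from GeneSpring with its own probe filter. The cause of these differences was not tested. The median log2 fold change of the member genes lay between 1.7 and 2.8 over all alternatives.

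Of 22 called genes outside the members that are named above, 22 were called without ATH replicate 2, and 6 were called under every alternative in which they were tested other than the 1% threshold and the unequal-variance test. Nfyc was 0.12 with no scaling, and Alb was 0.03 with quantile normalization and with no scaling. H2-Ob was the one member whose probe was not well above background on every array. Dim probes of other members also had smaller log2 fold changes with normexp. These were 0.98 (A_52_P145861) and 0.96 (A_51_P174723) for Cd86, against 1.58 and 2.03 in the main setting. For H2-Oa they were 0.78 (A_51_P449329) and 1.2 (A_51_P449325), against 1.29 and 2.0.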

Other observations

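A further probe, A_52_P362106, carries the name of a liver cDNA (AK005018) that the array annotation describes as a class II antigen transcript, and it was not counted among the members. It had levels of -0.41, -0.58, -0.38 and -1.41 on the STD arrays. On ATH arrays 1 to 4 it had 1.23, -0.47, 3.27 and 3.57. ATH replicate 2 was within the STD range, as for H2-Aa, and the log2 fold change was 2.6 ± 0.81 (adjusted p = 0.0786, limma). The dimmer probe of H2-DMb2, A_52_P1391, did not pass the detection filter and stood 2.01 and 1.95 above the STD mean in ATH replicates 3 and 4.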
